A study of Mus musculus with 9 samples.

Results

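Testes of busulfan-treated mice that had received exosomes from mice with an imbalance of the intestinal microbiota (BdE) were compared with testes of busulfan-treated mice that had received blood exosomes from wild-type mice (BE). Busulfan is an alkylating drug that depletes germ cells, and every group of the series carried it. The BdE group consisted of libraries BdE 5, BdE 6 and BdE 7 and the BE group of libraries BE 6, BE 7 and BE 8, so 6 of the 9 libraries of the series entered the comparison. The other 3 libraries (BP 5, BP 6 and BP 7) came from busulfan-treated mice injected with PBS, and their values are given as background. The comparison was made on the 13857 genes of the 55401 in the deposited table whose FPKM (a level per gene length and library size) was 1 or more in at least 3 of the 6 libraries. Of these, 11986 reached that level in all 6 libraries, 9 passed through the 3 BE libraries alone and 16 through the 3 BdE libraries alone. Exactly 3 libraries reached it for 537 of the genes tested, and 620 genes with 2 such libraries were left out.

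Exosomes are small membrane vesicles of endosomal origin that carry proteins, lipids and RNAs between cells through the blood. The bacteria of the gut shape the metabolites and inflammatory signals of the host, and the vesicles in the circulation differ with the state of the animal that releases them. In a testis cleared of germ cells by busulfan, the RNA comes mainly from somatic cells: Sertoli cells, which line the tubules and nurse the germ cells, Leydig cells, which make testosterone, and myoid, vascular and immune cells. The sources used here do not give strain, age, exosome dose, route or time after injection, nor the way the microbiota was disturbed. No label ties a library to an animal of its own, and p-values therefore cover only the spread between libraries, which may be technical. In bulk tissue, fewer cells of a type and less RNA per cell cannot be told apart.

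Library totals lay between 57923652 and 70103125 counts over the series and between 66878877 and 69609697 in the 6 libraries compared. BE 6 stood apart from the other BE libraries and lay with the PBS libraries. The labels give no measure of RNA quality, whether the label of BE 6 holds was not tested, and every BE mean depends on it. Not every gene placed BE 6 with PBS. Ccdc71 measured 64.5 CPM in BE 6, 64.3 and 64.5 CPM in BE 7 and BE 8, and 16.3 to 22.8 CPM in the PBS libraries. Abl1 measured 168 CPM in BE 6 and 44 to 57.96 CPM in the PBS libraries. Both genes were picked because they were known to separate the exosome groups from PBS. The median absolute log2 difference per gene was 0.121 to 0.170 between BE 6 and the PBS libraries, and 0.368 to 0.403 between BE 6 and the other BE libraries. BE 7 and BE 8 differed from the BdE libraries by 0.141 to 0.219, a range that overlapped the 0.166 to 0.222 found among the BdE libraries themselves. Mitochondrially encoded genes took 7.19%, 14.5% and 14.2% of the counts in BE 6, BE 7 and BE 8, and 11.8%, 12.2% and 13.4% in BdE 5, BdE 6 and BdE 7, against 7.10% to 8.01% in the PBS libraries. The rank correlation of a gene's log2 CPM (the count relative to the size of its library, taken against the gene's mean over the 9 libraries) with gene length was 0.237 in BE 6, -0.207 in BE 7 and -0.222 in BE 8, and it was -0.0928, -0.249 and -0.236 in the BdE libraries. Between the BE and BdE groups the two-sided exact permutation p was 1 for the mitochondrial share and 0.5 for the length trend, where 3 against 3 libraries cannot go below 0.1. Counts from refits with a gene length offset and with mitochondrial genes left out are given at the end. The part of these measures in the results below was not tested, and results are given with and without BE 6.

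**Figure D1:**
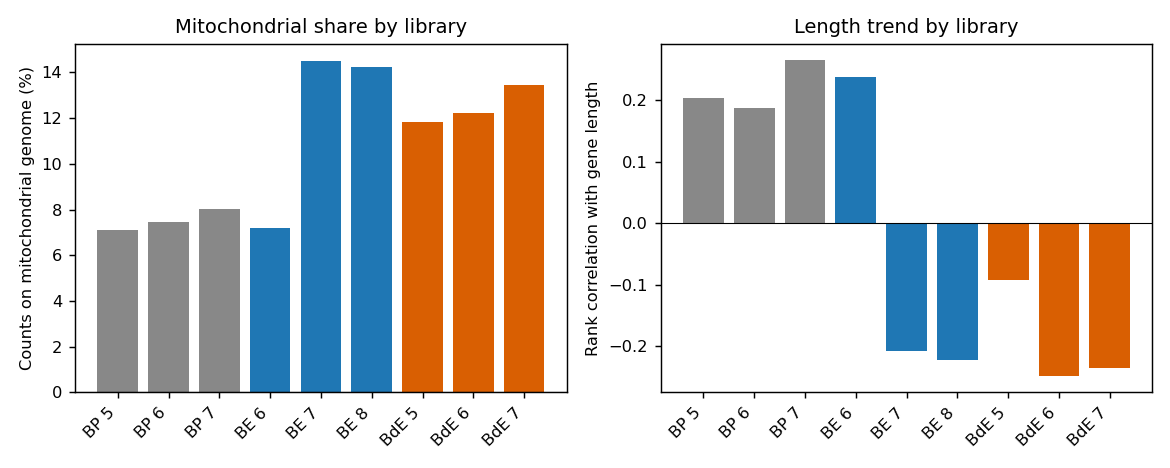
Mitochondrial share of counts (left, percent) and rank correlation of each library's relative log2 CPM with gene length (right) in the 9 libraries, 1 bar per library, grey for BP, blue for BE and orange for BdE. BE 6, at 7.19% and 0.237, stands with the 3 PBS libraries on both measures, while BE 7 and BE 8 stand with the 3 BdE libraries.

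No gene passed the test between BdE and BE in all 6 libraries. The quasi-likelihood test of edgeR called 0 of 13857 genes (0%) at a Benjamini-Hochberg adjusted p under 0.05. The smallest adjusted p was 0.0676. At an unadjusted p under 0.05 the same test counted 191 genes (1.38%), 99 higher (0.714%) and 92 lower (0.664%) in BdE. DESeq2 called 24 genes, 12 in each direction, and limma-voom called 0. With BE 6 left out, edgeR called 4 genes (0.0289%): Kctd12 and Gxylt1 were higher in BdE (0.0144%), and Pip5k1a and Rprd2 were lower (0.0144%). An unadjusted p under 0.05 was then reached by 674 genes (4.86%), and DESeq2 called 157. The count of 4 was 0 without BE 7, 0 without BdE 5, 0 without BdE 7, 1 without BE 8 and 7 without BdE 6, so the calls rest on few libraries. The spread within BE was wider than in the other groups: the median SD of log2 CPM was 0.271 in BE, 0.165 in BdE and 0.128 in BP. BE 6 was the highest or the lowest of the 6 libraries in 62.7% of the genes tested, and it differed by 2-fold or more from the mean of BE 7 and BE 8 in 1749 genes (12.6%).

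The genes with the smallest p-values in the 6 libraries were led by Rprd2 and Prrc2b, which lay lower in every BdE library than in every BE library. Rprd2 encodes a protein that binds the C-terminal domain of RNA polymerase II. Prrc2b encodes a proline-rich RNA-binding protein, Cux1 a homeodomain transcription factor and Pip5k1a a kinase that makes the membrane lipid phosphatidylinositol 4,5-bisphosphate. The promoters of these 4 genes are shown because, of the genes that lay lower in BdE, these had the smallest p-values. Each is the 300 bases from 250 before to 50 after the gene's start in RefSeq's table for GRCm38.p6, written 5′ to 3′ on the gene's strand, and all 4 genes matched that table. Capitals mark matches, on either strand, to the TATA box TATAAA, the CCAAT box, the GC box GGGCGG, the E-box CACGTG and the cyclic AMP response element TGACGTCA. None of these motifs contains another.
Rprd2 (chr3:95818904-95819203, minus strand): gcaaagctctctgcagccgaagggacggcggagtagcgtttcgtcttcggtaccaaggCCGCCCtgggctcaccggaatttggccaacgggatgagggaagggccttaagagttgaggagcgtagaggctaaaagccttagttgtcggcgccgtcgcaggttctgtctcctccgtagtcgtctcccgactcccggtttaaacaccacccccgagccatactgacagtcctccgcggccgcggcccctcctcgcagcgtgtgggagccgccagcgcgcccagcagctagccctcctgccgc
Prrc2b (chr2:32150898-32151197, plus strand): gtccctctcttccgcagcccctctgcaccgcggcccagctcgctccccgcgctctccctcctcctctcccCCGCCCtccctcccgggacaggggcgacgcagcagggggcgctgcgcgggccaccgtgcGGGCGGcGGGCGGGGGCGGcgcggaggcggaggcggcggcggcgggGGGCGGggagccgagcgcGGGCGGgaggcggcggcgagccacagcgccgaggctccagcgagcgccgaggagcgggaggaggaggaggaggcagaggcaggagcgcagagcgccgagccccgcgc
Pip5k1a (chr3:95106881-95107180, minus strand): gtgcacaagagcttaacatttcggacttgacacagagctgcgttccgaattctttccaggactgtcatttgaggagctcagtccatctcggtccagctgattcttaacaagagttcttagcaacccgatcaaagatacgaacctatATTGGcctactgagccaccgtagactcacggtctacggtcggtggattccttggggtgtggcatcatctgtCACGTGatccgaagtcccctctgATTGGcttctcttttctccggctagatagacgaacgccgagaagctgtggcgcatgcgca
Cux1 (chr5:136565932-136566231, minus strand): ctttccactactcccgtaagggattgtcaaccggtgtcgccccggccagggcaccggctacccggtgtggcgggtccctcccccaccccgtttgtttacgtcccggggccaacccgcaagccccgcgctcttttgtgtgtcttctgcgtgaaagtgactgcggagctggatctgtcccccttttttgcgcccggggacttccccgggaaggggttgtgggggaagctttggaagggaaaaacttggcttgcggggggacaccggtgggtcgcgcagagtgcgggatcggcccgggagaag

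No motif occurred in all 4 windows. The GC box occurred 1 time in the Rprd2 window and 6 times in the Prrc2b window, and 35.7% of all 32851 promoters in the table held it. The Pip5k1a window held 2 CCAAT boxes (in 37.4% of promoters) and 1 E-box (7.15%). None of the letters searched occurred in the Cux1 window, and neither the TATA box (13.6% of promoters) nor the cyclic AMP response element (1.79%) occurred in any of the 4. GC content was 64.7% for Rprd2, 82.0% for Prrc2b, 51.3% for Pip5k1a and 65.0% for Cux1, beside a median of 52.7% over the table.

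Rprd2 (chromosome 3, 95760341 to 95818863, minus strand, in the GRCm38 coordinates of the table) measured 102, 79.5 and 82.6 CPM in BE 6, BE 7 and BE 8 and 21.4, 16.6 and 19.9 CPM in BdE 5, BdE 6 and BdE 7. The 3 BdE libraries lay together and far below every BE library and every PBS library, which measured 102, 57.98 and 49.6 CPM. The log2 fold change was -2.18 (SE 0.16), with an edgeR adjusted p of 0.0676. Without BE 6 it was -2.06 (SE 0.131), with an edgeR adjusted p of 0.0434. Rprd2 thus fell in the comparison without BE 6 and missed the threshold with it.

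Prrc2b (chromosome 2, 32151082 to 32234537, plus strand) measured 84.5, 101 and 95.1 CPM in the BE libraries and 22.6, 29.1 and 20.9 CPM in the BdE libraries. The groups did not overlap, and the PBS libraries, at 58.6, 67.8 and 75.6 CPM, also lay above all BdE libraries. The log2 fold change was -1.95 (SE 0.163), with an edgeR adjusted p of 0.0798, and -2.01 without BE 6, with an edgeR adjusted p of 0.0842. It passed in the edgeR fit over all 9 libraries (log2 fold change -1.94, adjusted p = 0.0132).

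Pip5k1a (chromosome 3, 95058530 to 95106930, minus strand) measured 81.2, 120.1 and 120.4 CPM in BE and 42.1, 46.3 and 44.5 CPM in BdE. All BdE libraries lay below all BE libraries and below the PBS libraries, at 79.7, 76.4 and 127 CPM, and BE 6 lay with BP 5 and BP 6. The log2 fold change was -1.28 (SE 0.174, edgeR adjusted p = 0.632) with all 6 libraries. Pip5k1a fell by 1.44 on the log2 scale without BE 6 (SE 0.0798, edgeR adjusted p = 0.0284).

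Cux1 (chromosome 5, 136248135 to 136567490, minus strand) measured 97.04, 102 and 103 CPM in BE and 39.3, 52.8 and 43.2 CPM in BdE. The groups did not overlap, and the lowest PBS library, at 56.9 CPM, lay above the highest BdE library. The log2 fold change was -1.16 (SE 0.136), with an edgeR adjusted p of 0.417, and -1.18 without BE 6. In Rprd2, Prrc2b, Pip5k1a and Cux1 the annotated genes that overlap the locus held at most 50 counts in any library.

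Among the 10 genes with the smallest p-values, 3 more lay lower in BdE. Fam168a measured 32.7, 18.2 and 23.5 CPM in BE and 9.44, 8.85 and 7.59 CPM in BdE, a log2 difference of -1.52 (SE 0.244, edgeR adjusted p = 0.892). Kdm2a, a demethylase of histone H3 lysine 36, measured 152, 152 and 160.5 CPM in BE and 102, 103 and 111 CPM in BdE, and its BE libraries lay within the range of the PBS libraries or just above it. Its log2 difference of -0.56 (SE 0.0897) was the smallest of the 10 in size. The predicted gene 2010315B03Rik had a log2 difference of -1.20 (SE 0.191). Without BE 6 the differences were -1.27, -0.57 and -1.20 for Fam168a, Kdm2a and 2010315B03Rik. In all 3 the BdE libraries lay below every BE and every PBS library.

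The other 3 of the 10 lay higher in BdE. Cdc14b, a dual-specificity phosphatase of the cell cycle, measured 9.93, 12.9 and 16.99 CPM in BE and 33.8, 42.8 and 34.5 CPM in BdE, with a log2 difference of 1.48 (SE 0.228, edgeR adjusted p = 0.892). Mapkapk5, a protein kinase activated by MAP kinases, measured 20.6, 23.2 and 19.6 CPM in BE and 54.2, 44.7 and 40.7 CPM in BdE, with a log2 difference of 1.14 (SE 0.153, edgeR adjusted p = 0.632). The predicted gene Gm45441 measured 0.491, 0.53 and 0.136 CPM in BE and 3.28, 3.45 and 3.10 CPM in BdE. It passed the filter on low values only through the 3 BdE libraries, where it is high, so it had to differ and its place among the 10 supports nothing. Its log2 difference was 3.08 (SE 0.505, edgeR adjusted p = 0.901), and without BE 6 the differences were 1.32 for Cdc14b, 1.13 for Mapkapk5 and 3.29 for Gm45441. In each of the 3 the groups did not overlap, while the PBS libraries were split: BP 5 and BP 6 lay within the BdE range or nearer to it than to BE, and BP 7 lay low, at 6.90 CPM for Cdc14b, 14.3 CPM for Mapkapk5 and 0.353 CPM for Gm45441.

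The counting program and its use of strand are not stated in the labels, so genes that overlap may share reads. Cdc14b overlaps the antisense gene 1810034E14Rik, and Gm45441 lies across Grwd1 and Grin2d on the other strand. The value of Mapkapk5 depends on how reads were assigned to genes. Its locus on chromosome 5 overlaps Adam1a on the same strand, and Adam1a held 2970, 4258 and 4562 counts in BE and 3457, 2837 and 1479 counts in BdE. The sum over the overlapping genes was 4530, 5838 and 5883 counts in BE and 7296, 5908 and 5557 counts in BdE, which overlap. With same-strand overlapping genes summed, an alternative chosen after seeing these counts, the log2 difference was 0.21 with all 6 libraries and 0.07 without BE 6. DESeq2 called all 10 of these genes in the 6 libraries, edgeR none.

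**Figure D2:**
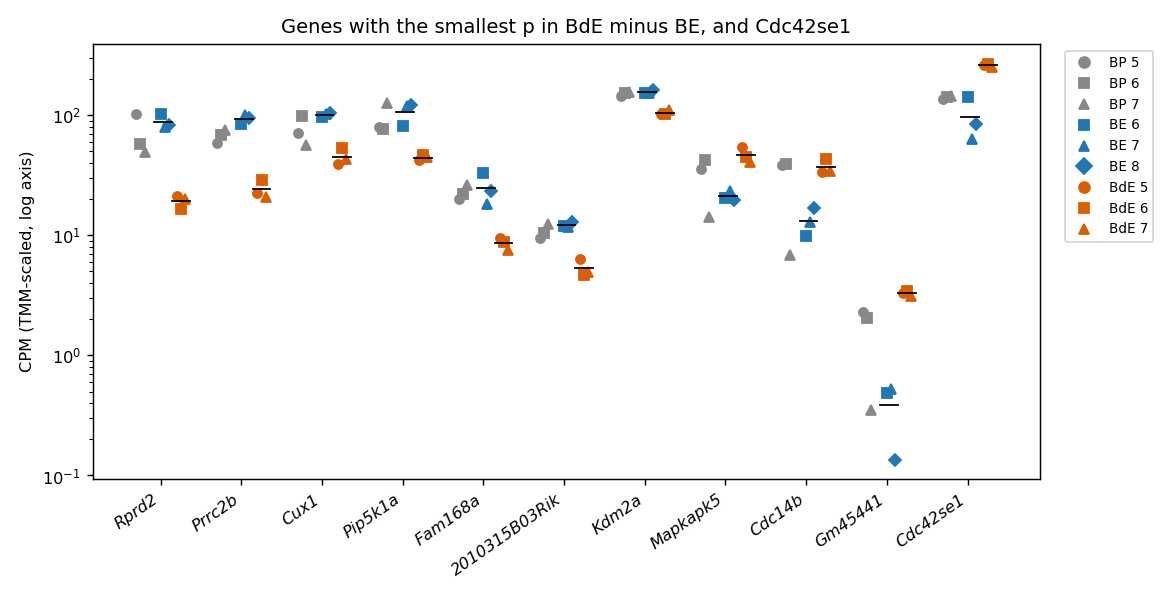
TMM-scaled CPM (log axis) of the 10 genes with the smallest p-values and of Cdc42se1, 1 point per library, with a black line at the mean of the 3 BE and of the 3 BdE libraries. In each gene every BdE point lies on 1 side of every BE point, as in Rprd2, where BdE spans 16.6 to 21.4 CPM and BE spans 79.5 to 102 CPM.

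The close relatives of these genes, chosen after the leading genes were known, showed smaller differences where they were tested with all 6 libraries. The log2 difference between BdE and BE was -0.01 for Rprd1a, 0.44 for Rprd1b, -0.12 for Prrc2a, -0.11 for Prrc2c, -0.07 for Cux2, 0.00 for Pip5k1b and 0.26 for Pip5k1c. It was -0.17 for Mapkapk2, -0.11 for Mapkapk3, -0.10 for Fam168b, 0.00 for Kdm2b and 0.03 for Cdc42se2, none past the edgeR threshold. Rprd1b measured 8.72, 24.1 and 24.3 CPM in BE and 26.6, 26.1 and 24.9 CPM in BdE, where BE 6 alone lay low, and the difference was 0.10 without that library. Pip5k1c differed by 1.01 without BE 6 (edgeR adjusted p = 0.915). It measured 86.2, 23.5 and 33.4 CPM in BE and 27.3, 73.2 and 70.8 CPM in BdE, where BdE 5 lay with BE 7 and BE 8. Cdc14a, the relative of Cdc14b, was below the filter and not tested, at 10.98, 14.2 and 11.9 CPM in BE and 11.2, 3.23 and 3.86 CPM in BdE, with BdE 6 and BdE 7 low.

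Rprd2, Pip5k1a and Cdc42se1 lie within 760 kb of each other on chromosome 3, at chr3:95058530-95818863. Cdc42se1 encodes a small protein that binds the GTPase CDC42. It measured 143, 63.8 and 84.1 CPM in BE and 259, 268 and 254 CPM in BdE, and the PBS libraries, at 138, 142 and 145 CPM, lay below every BdE library and near BE 6, the highest BE library. Its log2 difference was 1.43 (SE 0.289, edgeR adjusted p = 1) and 1.82 without BE 6 (SE 0.139, edgeR adjusted p = 0.0842). The stretch holds 30 tested genes. In 4 of these 30 the libraries of the groups did not overlap, beside 5.13% of all genes tested, and the fourth, Mindy1, differed by -0.07 on the log2 scale. The other 27 genes of the stretch that differed less than 2-fold had log2 differences of at most 0.52 in size. The stretch was chosen because of these genes, so its count is a description.

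In the comparison without BE 6 the largest rise among the 4 called genes was in Kctd12, an auxiliary subunit of GABA-B receptors. It held 6911, 0 and 0 counts in BE 6, BE 7 and BE 8, 9626, 5956 and 7682 counts in BdE 5, BdE 6 and BdE 7, and 5241, 6931 and 8128 counts in the PBS libraries. Only BE 7 and BE 8 of the 9 libraries held no reads assigned to Kctd12. Mir5130, which overlaps it on the same strand, held 9, 2 and 4 counts in BE and 1, 1 and 0 in BdE. With same-strand overlapping genes summed, the log2 fold change without BE 6 was 11.26, beside 15.91 in the main fit. Against the limit that a count of 0 allows, 3 counts per library or 0.0447 CPM, the BdE mean of 113.6 CPM was at least 2540-fold higher (edgeR adjusted p = 0.0284 without BE 6). With all 6 libraries the groups overlapped and the edgeR adjusted p was 1. Limits of this kind cover counting error only.

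Gxylt1, which adds xylose to O-glucose on the EGF repeats of Notch, also rose without BE 6. It measured 50.4, 7.04 and 6.12 CPM in BE, 51.3, 47.6 and 41.6 CPM in BdE and 55.6, 53.9 and 66.8 CPM in BP. BE 7 and BE 8 were low and the other 7 libraries lay together, at 41.6 CPM or more. The log2 fold change was 2.84 (SE 0.154, edgeR adjusted p = 0.0284) without BE 6 and 1.15 (SE 0.811, edgeR adjusted p = 1) with it. In both Kctd12 and Gxylt1 the BdE libraries lay near BE 6 and the PBS libraries.

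The remaining genes among the 10 smallest p-values of the comparison without BE 6 did not pass its edgeR test. DESeq2 called all 6 of them, and limma-voom called Prrc2b, Cdc42se1 and Gm8355. With the 3 PBS libraries added to the edgeR fit, Prrc2b, Cdc42se1 and Gm8355 passed (adjusted p = 0.0103, 0.0035 and 0.00571). Pogk, a nuclear protein with a KRAB domain, measured 27.9, 9.67 and 11.3 CPM in BE and 52.6, 35.2 and 40.99 CPM in BdE (log2 difference 2.04 without BE 6, edgeR adjusted p = 0.286). Gm8355, a predicted pseudogene, measured 10.7, 36.1 and 33.1 CPM in BE and 5.66, 6.995 and 8.19 CPM in BdE (log2 difference -2.31 without BE 6, edgeR adjusted p = 0.0842). Its high values in BE 7 and BE 8 had no match in the PBS libraries, which measured 8.58 to 9.82 CPM. Paip2, an inhibitor of the poly(A)-binding protein, measured 119, 94.6 and 81.6 CPM in BE and 149, 151 and 155 CPM in BdE, so every BdE library lay above every BE library.

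Some genes were close to absent in some libraries and present in others of the same group. Among the 10 genes most unequal between BE 6 and the other BE libraries, Usp50 held 4, 1474 and 1443 counts in BE and 1235, 9 and 13 in BdE, while Gm10774, on the same strand within it, held 271, 1 and 1 and 1, 412 and 438. The gene that was high alternated, and the sums of both were 275, 1475 and 1444 counts in BE and 1236, 421 and 451 in BdE. Ugt1a7c, a glucuronosyltransferase whose gene shares exons with the Ugt1a cluster, held 6278, 253 and 140 counts in BE and 3028, 5707 and 2155 in BdE. Summed over the cluster the counts were 25682, 5630 and 5089 in BE and 9152, 13149 and 8541 in BdE, so BE 6 still lay highest.

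Ntn1, which encodes the secreted guidance protein netrin 1, held 1930, 497 and 4 counts in BE, 1072, 678 and 15 in BdE and 1509, 1889 and 1917 in BP. It was nearly absent in 1 library of each exosome group and in none of the PBS group. Evi2b held 257, 0 and 0 counts in BE and 347, 177 and 0 in BdE, and it overlaps Evi2 on the same strand. Zfp708, a zinc finger gene, held 0, 434 and 8 counts in BE and 516, 0 and 441 in BdE. It too overlaps another gene, Gm28557, which held 392, 82 and 572 counts in BE and 84, 434 and 99 in BdE and was high where Zfp708 was low. Klk1b8, a kallikrein with near-identical relatives, held 908, 19 and 23 counts in BE and 141, 756 and 634 in BdE. Kctd12 and the predicted genes Gm2274 and 4732440D04Rik completed the 10. Kctd12 was the most unequal of them, with BE 6 above the mean of BE 7 and BE 8 by 11.7 on the log2 scale.

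**Figure D3:**
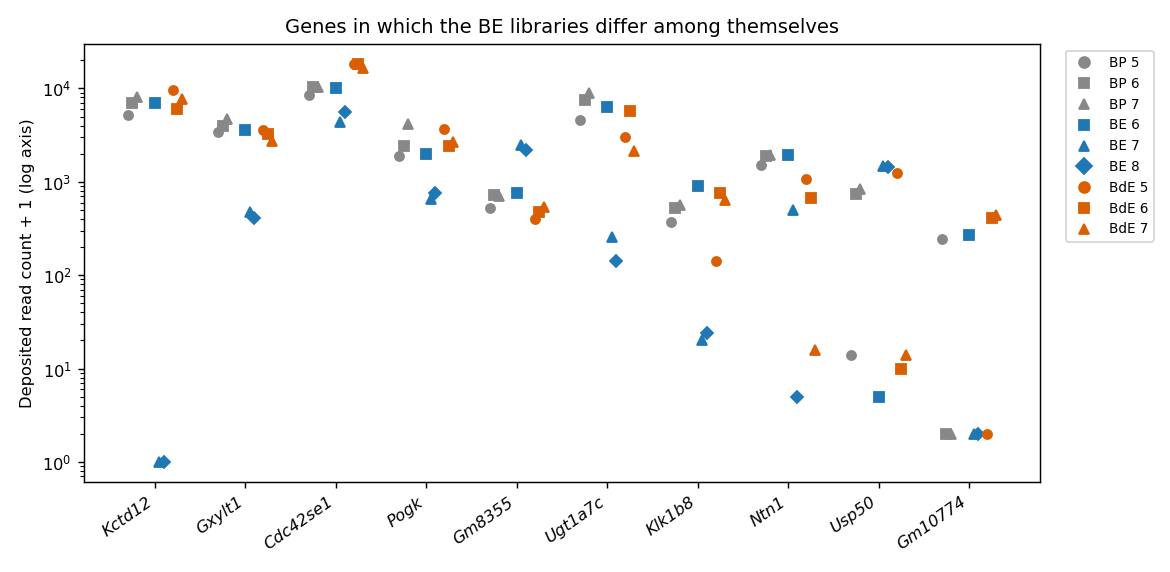
Deposited read counts plus 1 (log axis) of 10 genes in which the BE libraries differ among themselves, 1 point per library, grey for BP, blue for BE and orange for BdE. Kctd12 lies at 0 counts in BE 7 and BE 8 and at 5241 or more in the other 7 libraries.

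In 711 genes (5.13%) every BdE library lay above or below every BE library, 349 higher (2.52%) and 362 lower (2.61%). Full separation of 3 against 3 libraries corresponds to the 0.1 limit of the exact permutation test, so by itself it marks no gene as changed. With scaling by library totals alone the split was 428 higher and 278 lower. A fitted difference of 2-fold or more was present in 49 of them (0.354%), 27 higher (0.195%) and 22 lower (0.159%). Without BE 6 the libraries did not overlap in 3161 genes (22.8%), a count over 5 libraries that is not comparable with the one over 6.

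Of the 49 genes, 25 had a mean of 10 CPM or more in a group, of which 9 protein-coding genes with an assigned name lay higher and 11 lower in BdE. The examples that follow were chosen after their values were seen, and none passed the edgeR test with or without BE 6. Prkar2b, a regulatory subunit of protein kinase A, measured 22.7, 40.8 and 49.1 CPM in BE and 11.5, 19.8 and 13.3 CPM in BdE (log2 difference -1.34, and -1.59 without BE 6). Thrb, the beta receptor for thyroid hormone, measured 13.1, 12.5 and 10.5 CPM in BE and 7.22, 1.77 and 1.21 CPM in BdE (log2 difference -1.82, and -1.75 without BE 6), and it passed the filter on low values only through the BE libraries, where it is high. In Thrb the BE libraries lay within or near the PBS range of 11.3 to 14.3 CPM, and BdE 5 lay nearest to it.

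Pcyt1a, which catalyses the regulated step of phosphatidylcholine synthesis, measured 149.6, 155 and 191 CPM in BE and 16.9, 22.9 and 128 CPM in BdE, so BdE 7 lay near BE while BdE 5 and BdE 6 lay far below. Tnfaip2, induced by tumour necrosis factor, measured 76.5, 74.2 and 28.9 CPM in BE and 15.2, 28.1 and 28.2 CPM in BdE, and BE 8 almost touched the BdE range. Zbtb38, a zinc finger protein that binds methylated DNA, measured 56.4, 44.1 and 46.99 CPM in BE and 40.5, 17.4 and 14.2 CPM in BdE. Pdf, the peptide deformylase of mitochondria, measured 15.6, 5.83 and 15.6 CPM in BE and 5.68, 5.69 and 5.34 CPM in BdE, with BE 7 next to the BdE libraries. It overlaps Cog8 on the same strand and may share reads with it. Without BE 6 the log2 differences were -1.62 for Pcyt1a, -1.11 for Tnfaip2, -0.92 for Zbtb38 and -0.94 for Pdf.

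On the higher side, Esyt2, which tethers the endoplasmic reticulum to the plasma membrane, measured 25.5, 38.4 and 12.3 CPM in BE and 49.8, 59.5 and 62.3 CPM in BdE. Ssh2, a phosphatase that activates the actin-severing protein cofilin, measured 23.9, 46.8 and 5.90 CPM in BE and 55.7, 53.6 and 55.3 CPM in BdE, where the BdE libraries lay together and the BE libraries were spread. Exosc6, a subunit of the RNA-degrading exosome, a protein complex unrelated to exosome vesicles, measured 5.90, 3.08 and 2.95 CPM in BE and 11.6, 9.04 and 14.1 CPM in BdE. Exosc6 overlaps Aars on the same strand, which held 11816, 6832 and 7028 counts in BE and 5999, 8222 and 6104 in BdE. Ssh2 overlaps Gm12346 on the same strand, so both genes may share reads with their neighbours. The zinc finger genes Zfp518a and Zfp239 had log2 differences of 1.21 and 1.53. Without BE 6 the differences were 1.18 for Esyt2, 1.06 for Ssh2, 1.95 for Exosc6, 1.79 for Zfp518a and 2.30 for Zfp239.

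The described lists of pathway and cell type genes had no member past the edgeR test. Where the 6 values of a gene follow without group names, those of BE come before those of BdE. The 40 lists were chosen with earlier results of these data known, and 33 of them had at least 5 members tested, with 541 distinct genes tested in all lists. Of these 541 genes, edgeR called 0 with all 6 libraries and 0 without BE 6. DESeq2 called 1 and 13. The libraries of the groups did not overlap in 25 of the 541 (4.62%), near the 5.13% of all genes. The median log2 difference of a list lay within 0.251 of 0 in these 33 lists apart from the Klk1b kallikreins, beside a median of -0.01 over all genes, of which 6528 (47.1%) lay above 0. Leaving out BE 6 changed the sign of the median in 17 of the 33 lists. In 23 of the 33 the mean BdE level lay between BE 6 and the mean of BE 7 and BE 8. Of all genes tested, 8096 (58.4%) had their mean log2 CPM in BdE between the same values.

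**Figure D4:**
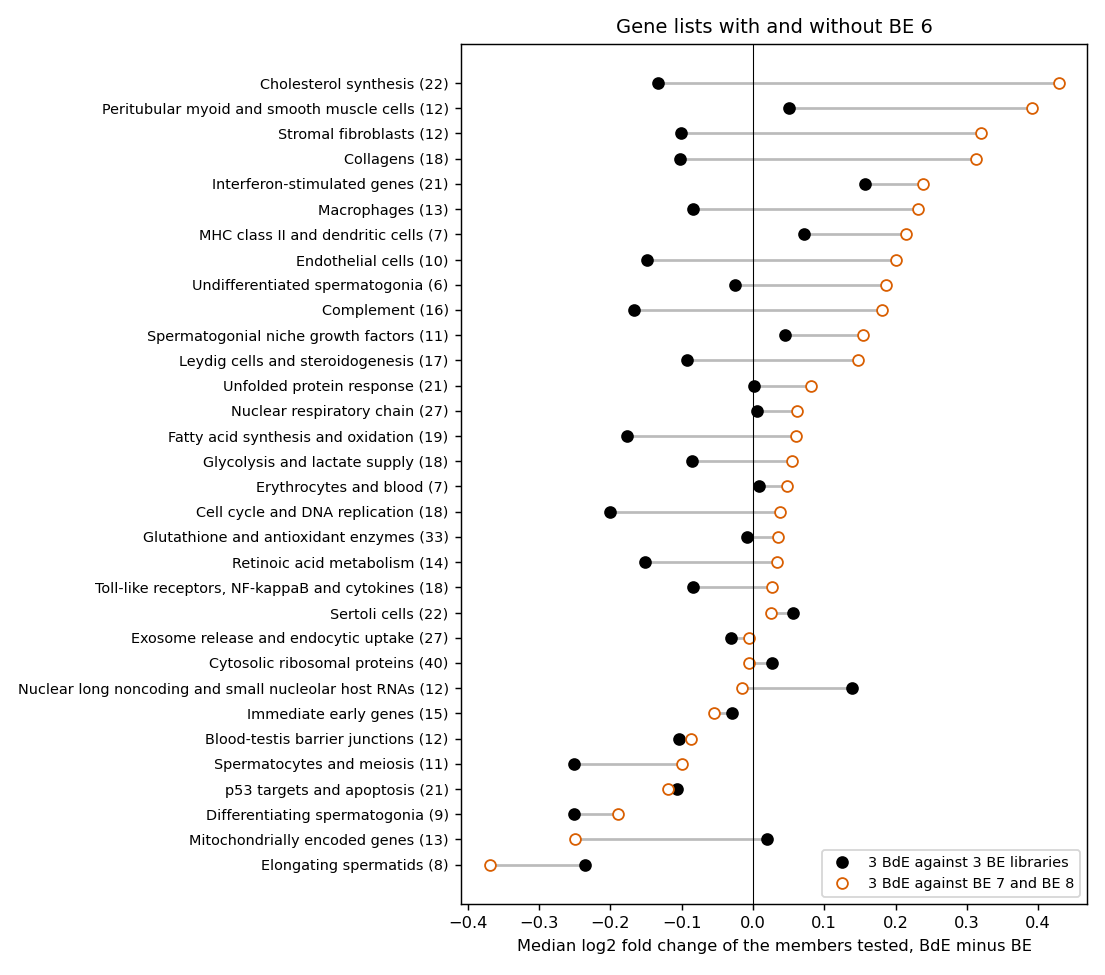
Median log2 fold change of the members tested (BdE minus BE, number of members in parentheses) for 32 lists with at least 5 tested members, with all 6 libraries (filled) and without BE 6 (open). The open points of cholesterol synthesis and myoid cells lie at 0.43 and 0.39, away from their filled points at -0.13 and 0.05, and the Klk1b kallikreins lie outside the range drawn.

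Leydig cell and steroidogenic genes were uneven within both groups. Of 17 members 6 lay above 0 and 11 below, with a median log2 difference of -0.09, and 14 lay above 0 without BE 6, with a median of 0.15. The mean level of the list on the log2(FPKM + 1) scale was 6.39, 5.38 and 5.74 in BE and 5.62, 6.02 and 5.64 in BdE, so BE 6 lay highest and BE 7 lowest. Ldhb, lactate dehydrogenase B, one of the most abundant members, measured 529, 1019 and 1160 and 673, 990.5 and 1087 CPM and was lowest in BE 6. Cyp11a1, the enzyme of the first step of steroid synthesis, measured 1216, 183 and 479 CPM in BE, 223, 660.5 and 273 CPM in BdE and 1026, 994 and 838 CPM in BP. Cyp17a1, which acts later in the pathway, measured 2285, 556 and 946 and 579, 1224 and 622 CPM in BE and BdE. In both genes BE 6 reached or passed the PBS level and BdE 6 lay above the other BdE libraries.

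Star, which delivers cholesterol to the mitochondrion, measured 786, 225 and 323 CPM in BE and 265, 403 and 296 CPM in BdE. Lhcgr, the receptor for luteinizing hormone, measured 145, 38.7 and 57.1 and 61.7, 78.2 and 52.1 CPM. Insl3, the peptide hormone of Leydig cells, did not share this order. It measured 5220, 5077 and 5168 CPM in BE, 5833, 6744 and 6318 CPM in BdE and 4961, 5384 and 4927 CPM in BP, and the BdE libraries lay above all others (log2 difference 0.29, SE 0.147, edgeR adjusted p = 1, and 0.30 without BE 6).

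Cholesterol synthesis genes showed the widest gap between BE 6 and the other BE libraries of the metabolic lists, 1.26 on the mean log2(FPKM + 1) scale. The level was 4.17, 2.92 and 2.91 in BE, 3.01, 3.72 and 3.09 in BdE and 4.01, 4.03 and 4.12 in BP, with BdE 6 between BE 6 and the rest. With all 6 libraries 17 of 22 members lay below 0 (median -0.13), and without BE 6 21 of 22 lay above 0 (median 0.43). Ebp, a sterol isomerase and one of the most abundant members, measured 121, 126 and 138 and 136, 133 and 133 CPM and did not show the gap, while Hmgcs1, which acts early in the pathway, measured 307, 158 and 177 and 184, 235 and 172 CPM. Sqle, an oxygenase near the start of the sterol branch, measured 80.5, 17.4 and 16.9 CPM in BE and 18.8, 33.04 and 20.4 CPM in BdE. Idi1, an isomerase of the isoprenoid steps, measured 53.5, 11.7 and 14.7 CPM in BE and 21.1, 28.2 and 17.4 CPM in BdE, so all BdE libraries lay between BE 6 and the other BE libraries.

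Fatty acid genes also moved with BE 6 as a list. Of 19 members 17 lay below 0 with all 6 libraries (median -0.18) and 6 without BE 6 (median 0.06). Fasn, the fatty acid synthase, measured 623, 469 and 481 CPM in BE, 332, 403 and 362 CPM in BdE and 623, 568 and 661 CPM in BP, and the BdE libraries lay below all others. Its log2 difference was -0.52 (SE 0.15, edgeR adjusted p = 1), and -0.37 without BE 6. Acaca, acetyl-CoA carboxylase, measured 274, 238 and 252 CPM in BE and 227, 215 and 213 CPM in BdE, again with no overlap (log2 difference -0.22, and -0.16 without BE 6). Fads2, a desaturase, measured 1644, 509 and 704 and 685, 757 and 625 CPM, where BE 6 lay apart and the other 5 libraries overlapped, and Elovl5, an elongase, measured 484, 326 and 385 and 335, 379 and 348 CPM. Fasn and Acaca were named after their values were seen.

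Mitochondrially encoded genes were lowest in BE 6 among the 6 libraries. Their mean level was 11.80, 12.76 and 12.76 in BE, 12.40, 12.53 and 12.65 in BdE and 11.80, 11.90 and 12.01 in BP on the log2(FPKM + 1) scale. All 13 lay below 0 without BE 6 (median -0.25), whereas 8 of 13 lay above 0 with it (median 0.02). mt-Co1, a catalytic subunit of cytochrome c oxidase, measured 29000, 64970 and 63430 CPM in BE and 53340, 52190 and 59770 CPM in BdE, so the BdE libraries lay below BE 7 and BE 8 and above BE 6, as did mt-Co2, at 5482, 11840 and 11510 and 9315, 9562 and 11020 CPM. Nuclear genes of the respiratory chain did not share this spread: their level was 5.36, 5.26 and 5.27 in BE and 5.27, 5.42 and 5.37 in BdE, with a median of 0.01 and, without BE 6, 0.06 over 27 genes. Their most abundant members, Cox6a1 and Ndufa1, measured 300.1, 282 and 268 and 295, 368 and 321 CPM and 44.5, 61.4 and 53.99 and 56.9, 65.5 and 68.2 CPM.

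The mean levels of the macrophage, fibroblast, endothelial and myoid lists were highest in BE 6 and the PBS libraries, though single members differed. The level of 13 macrophage genes was 4.51, 3.36 and 3.74 in BE, 3.81, 4.03 and 3.66 in BdE and 4.45, 4.48 and 4.47 in BP, and all 13 lay above 0 without BE 6 (median 0.23) but 6 with it (median -0.08). Adgre1, which encodes F4/80, measured 24.1, 4.58 and 4.80 CPM in BE and 6.62, 6.28 and 4.58 CPM in BdE. Csf1r, the receptor for colony stimulating factor 1, measured 134, 44.02 and 48.7 and 63.5, 76.99 and 50.96 CPM. In both, BE 6 lay apart and the BdE libraries lay near BE 7 and BE 8. Of the most abundant members, Lyz2, a lysozyme, measured 254, 61.9 and 132 CPM in BE and 114, 129 and 88.1 CPM in BdE. C1qb, a subunit of complement C1q, measured 81.6, 53.1 and 69.8 and 66.1, 78.03 and 64.6 CPM, and BE 6 stood less far from the other libraries.

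Myoid and smooth muscle genes gave 9 of 12 above 0 with all libraries (median 0.05) and 12 of 12 without BE 6 (median 0.39). Des, which encodes the muscle filament desmin, measured 35.4, 15.9 and 16.6 CPM in BE and 25.7, 22.6 and 21.2 CPM in BdE, and Myh11, the smooth muscle myosin, measured 215, 144 and 144 and 179.9, 144 and 156 CPM. The abundant Acta2, smooth muscle actin, measured 343, 208 and 224 and 337, 264 and 237 CPM, and Myl9, a myosin light chain, measured 358, 169 and 406 CPM in BE and 418, 386 and 396 CPM in BdE, where BE 7 alone lay low and BE 8 lay above BE 6. Fibroblast genes gave 3 of 12 above 0 and 11 of 12 without BE 6 (medians -0.10 and 0.32), with 153, 53.8 and 57.7 CPM in BE and 70.6, 66.7 and 63.96 CPM in BdE for the collagen gene Col3a1. Dcn, the proteoglycan decorin, measured 451, 214 and 202 and 337, 251 and 242 CPM, while Mgp, matrix Gla protein, measured 98.5, 104 and 109.5 and 71.9, 105 and 95.3 CPM and was not highest in BE 6. Endothelial genes had medians of -0.15 and 0.20, collagens of -0.10 and 0.31, and complement genes of -0.17 and 0.18. Cdh5, the cadherin of endothelial junctions, measured 65.6, 32.1 and 25.3 and 28.8, 35.7 and 37.6 CPM, and Cldn5, a claudin, 23.99, 21.99 and 17.3 and 23.9, 25.7 and 24.6 CPM with BdE 6 highest. The collagen genes Col18a1 and Col6a1 measured 166, 154 and 195 and 135, 188 and 172 CPM and 134, 57.6 and 58.2 and 87.9, 73.9 and 61.4 CPM, and Serping1, the C1 inhibitor, 425, 123 and 155 and 194, 230.0 and 163 CPM, so BE 6 lay apart in Col6a1 and Serping1 and within the others in Col18a1. These lists share the libraries and the length and mitochondrial trends given above. They were covered by the refits with a gene length offset and with mitochondrial genes left out, but the part of either trend in them was not tested.

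**Figure D5:**
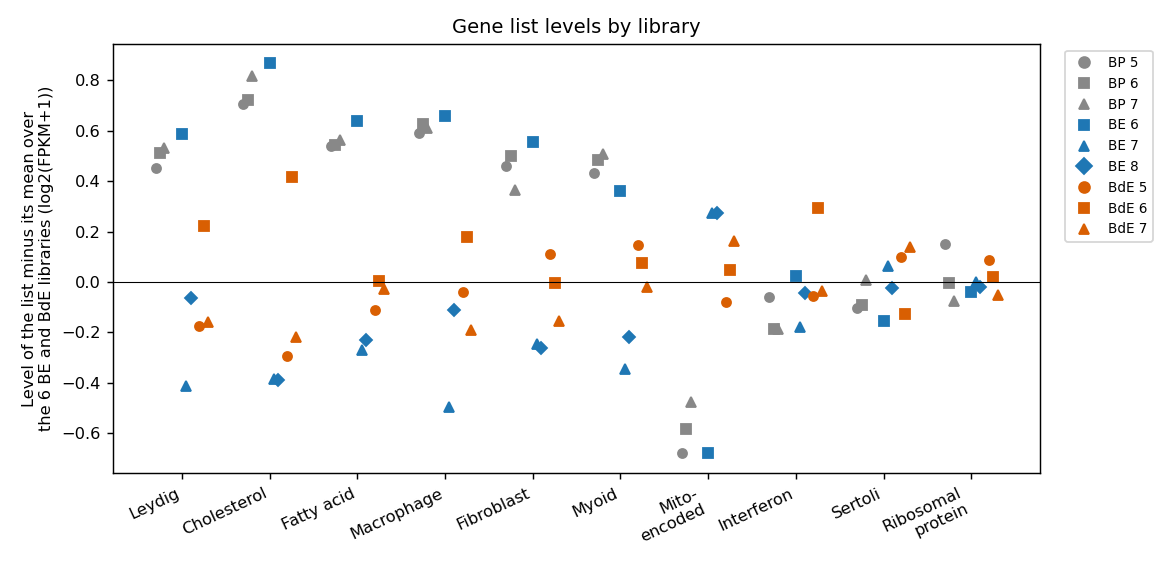
Mean level of 10 gene lists in each library (log2(FPKM + 1), relative to the list's mean over the 6 exosome libraries), 1 point per library, grey for BP, blue for BE and orange for BdE. BE 6 lies with the PBS libraries in the Leydig, cholesterol, fatty acid, macrophage, fibroblast, myoid and mitochondrially encoded lists, and the Sertoli and ribosomal protein lists span a narrower range.

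Interferon-stimulated genes lay mostly higher in BdE both with and without BE 6. Of 21 members 18 lay above 0 in both (medians 0.16 and 0.24, beside -0.01 and 0.00 over all genes). The level was 2.65, 2.44 and 2.58 in BE and 2.57, 2.92 and 2.59 in BdE on the log2(FPKM + 1) scale, so BdE 6 alone lay above every BE library. The median was 0.05 without BdE 6, the lowest of the 21 alternatives run on the 6 libraries, none of which gave the opposite sign. The groups did not overlap in 6 of the 21 members, beside 5.13% of all genes tested, named here after their values were seen: Oas2, Ifi27, Ddx58, Xaf1 and Rtp4 higher and Irf9 lower in BdE. Ifi27, an interferon-induced membrane protein, measured 96.6, 107 and 106 CPM in BE and 115, 145 and 116 CPM in BdE, above a PBS range of 75.1 to 81.5 CPM. Oas2, a sensor of double-stranded RNA, measured 11.4, 12.9 and 12.8 and 14.1, 24.3 and 13.9 CPM, again highest in BdE 6. Bst2, the antiviral membrane protein tetherin, measured 31.6, 23.9 and 27.8 and 29.6, 43.02 and 30.6 CPM, and its groups overlapped. Irf9, the DNA-binding part of the interferon-activated transcription complex, measured 32.97, 30.7 and 27.4 CPM in BE and 19.97, 23.3 and 23.8 CPM in BdE. Their log2 differences ran from -0.44 for Irf9 to 0.50 for Oas2, and from -0.37 to 0.44 without BE 6, and no member passed the edgeR test.

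Genes of Toll-like receptors, NF-kappaB and cytokines had medians of -0.08 and 0.03 over 18 genes with and without BE 6, and genes of MHC class II and dendritic cells 0.07 and 0.21 over 7. Nfkbia, an inhibitor of NF-kappaB, measured 101, 134 and 149 and 138, 118 and 131 CPM and Rela, a subunit of it, 156, 117 and 139.8 and 152, 119 and 120.1 CPM. Cd74, the invariant chain of MHC class II, measured 107, 65.4 and 83.7 and 88.8, 102 and 68.03 CPM and Ctss, cathepsin S, 40.7, 17.8 and 47.5 and 26.03, 32.03 and 26.4 CPM, with overlapping groups in all 4 genes. Of the 12 lymphocyte genes only Lck was tested. Glutathione and antioxidant genes had a median of -0.01 over 33 genes, with 2490, 2609 and 1722 and 1896, 2268 and 3202 CPM for Gstm1 and 1807, 1603 and 1586 and 1784, 1928 and 1825 CPM for Gstm2, mu-class glutathione transferases. Both pi-class glutathione transferases, which are near-identical copies whose reads may be split between them, lay lower in BdE. Gstp2 measured 34.2, 47.5 and 42.2 CPM in BE and 24.4, 19.5 and 23.04 CPM in BdE (log2 difference -0.89), and Gstp1 measured 165, 174 and 169.6 and 111, 150.2 and 136 CPM (log2 difference -0.36, and -0.37 without BE 6). In neither did the groups overlap, and the PBS values of Gstp2, 18.1 to 19.98 CPM, overlapped the lowest BdE value.

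Sertoli cell genes varied less between libraries of a group (SD of the level 0.127) than Leydig (0.393), macrophage (0.436), fibroblast (0.344), myoid (0.274) or endothelial genes (0.246). Their level was 6.63, 6.84 and 6.76 in BE and 6.88, 6.65 and 6.92 in BdE, and their median log2 difference was 0.06 over 22 genes and 0.03 without BE 6. Sox9, the transcription factor that directs Sertoli cell fate, measured 156, 159 and 168 CPM in BE, 172, 150.0 and 169 CPM in BdE and 149, 176 and 184 CPM in BP, with a log2 difference of 0.02 (SE 0.098). Clu, clusterin, one of the most abundant members, measured 10050, 9491 and 10340 and 10040, 9694 and 10550 CPM, and Cst12, a cystatin, 401, 757 and 809 and 780.0, 601 and 745 CPM with BE 6 lowest. Amh, anti-Müllerian hormone, measured 28.5, 38.2 and 32.3 and 58.4, 30.9 and 41.2 CPM. Kitl, the ligand of the germ cell receptor KIT, measured 135, 174 and 187 and 221, 146 and 185 CPM. The junction genes of the blood-testis barrier had 10 of 12 members below 0 both with and without BE 6 (medians -0.10 and -0.09). Its most abundant members, Cldn11 and Cgn, measured 711, 995 and 930.2 and 876, 866 and 890.1 CPM in BE and BdE and 742, 691 and 758 and 644, 664 and 704 CPM.

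Germ cell genes were uneven in both groups, and not all of them were low. Ddx4, a helicase of all germ cells, measured 15.9, 15.5 and 4.87 CPM in BE, 8.39, 11.97 and 7.26 CPM in BdE and 12.8, 10.2 and 2.41 CPM in BP. BE 8 and BP 7 were low, and the BE and BdE ranges overlapped. Sycp3, a component of the meiotic chromosome axis, measured 7.73, 7.79 and 1.70 and 2.74, 5.65 and 4.45 CPM, again with BE 8 lowest. All 11 tested genes of spermatocytes and meiosis lay below 0 with all libraries (median -0.25), 9 of 11 without BE 6 (median -0.10), and the groups overlapped in all 11. Mybl1, a transcription factor of meiosis, measured 26.7, 35.7 and 33.6 and 27.9, 31.01 and 29.7 CPM and Syce2, of the synaptonemal complex, 11.4, 17.9 and 9.55 and 6.79, 11.98 and 14.6 CPM. Their level was 2.22, 2.14 and 1.00 in BE and 1.22, 1.94 and 1.73 in BdE, so BE 8 and BdE 5 lay low and each group held libraries on both sides.

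Differentiating spermatogonia had 8 of 9 genes below 0 (median -0.25), and -0.19 without BE 6. Kit, the receptor of differentiating spermatogonia, which Leydig cells also express, measured 140.5, 60.8 and 46.2 CPM in BE, 70.9, 77.5 and 61.03 CPM in BdE and 128, 129.6 and 139.6 CPM in BP, with BE 6 at the PBS level. Dmrt1, which Sertoli cells also express, measured 55.1, 104 and 91.5 and 92.6, 72 and 91.4 CPM. Undifferentiated spermatogonia had medians of -0.03 and 0.19 over 6 genes, with 115, 74.1 and 81.3 and 123, 72.5 and 104 CPM for Etv5 and 29.5, 41.9 and 47.1 and 41.4, 34.1 and 37.4 CPM for Id4, and Gfra1, a receptor of those cells, was too low to be tested. Elongating spermatid genes spread most between libraries of a group among the germ cell lists: Smcp, a protein of the sperm mitochondrial sheath, measured 87.4, 197 and 45.3 CPM in BE, 2.10, 145 and 145 CPM in BdE and 18.5, 18.9 and 18.3 CPM in BP. Odf1, of the outer dense fibres of the sperm tail, measured 38.2, 102 and 23.6 and 1.26, 66.5 and 69.8 CPM. BdE 5 was the lowest of the 9 libraries in both, and the other 5 exosome libraries lay above the PBS range. Prm1, Tnp1 and Acrv1, markers of spermatids, measured at most 0.505 CPM in any library.

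Markers of fat, epididymis, blood and retina differed between single libraries more than between the groups. The adipocyte genes Cfd and Car3 measured 3.88, 0.0585 and 52.3 and 7.03, 0.79 and 61.9 CPM in BdE and 5.24, 2.25 and 11.4 and 11.02, 5.71 and 15.3 CPM in BE, highest in BdE 7. Of the 12 epididymal genes 2 were tested. Lcn2, a lipocalin also made outside the epididymis, measured 4572, 1754 and 2589 CPM in BE and 1811, 4537 and 2693 CPM in BdE, and Cst8, a cystatin, measured 30.01, 19.1 and 13.96 CPM in BE and 17.7, 33.1 and 25.6 CPM in BdE, so both genes were present in all 6 libraries and highest in BE 6 and BdE 6. The defining epididymal genes Crisp1 and Rnase9 were at 0 in all 6 libraries except Crisp1 in BdE 7, at 3.004 CPM, while BP 5 held 630.1 CPM of Crisp1. Haemoglobin Hbb-bs measured 55.04, 46.5 and 84.9 CPM in BE and 22.6, 98.98 and 46.2 CPM in BdE, and Hba-a2 38.6, 27.4 and 44.6 and 12.5, 67.2 and 31.4 CPM. Retinas are named in the labels' extraction protocol although the tissue is given as testis. Of 12 photoreceptor genes 1 passed the filter on low values, Prph2, at 26.8 to 34.8 CPM in BE and 29.8 to 40.7 CPM in BdE.

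The Klk1b kallikreins, serine proteases with near-identical copies among which reads may be split, had the widest spread of the lists. Their level was 5.27, 1.82 and 2.15 in BE, 3.04, 4.92 and 4.28 in BdE and 4.22, 4.51 and 4.28 in BP. The median log2 difference over 9 genes was 0.44 with all libraries and 3.02 without BE 6. Klk1b21 measured 367, 18.9 and 35.8 CPM in BE and 58.2, 276 and 157 CPM in BdE, and Klk1b24 measured 229, 18.3 and 33.6 and 60.4, 192 and 135 CPM. BE 7 and BE 8 were the lowest of the 9 libraries in both genes, BE 6 was the highest, and neither gene passed the edgeR test without BE 6 (adjusted p = 0.915 and 0.915). DESeq2 without BE 6 called Klk1b24 (log2 difference 2.32, adjusted p = 0.00126) but not Klk1b21. It also called Klk1b1, Klk1b8, Klk1b16 and Klk1b26.

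Cytosolic ribosomal protein genes differed little, with a median of 0.03 over 40 genes and -0.01 without BE 6, and a level of 6.43, 6.46 and 6.45 in BE and 6.55, 6.49 and 6.41 in BdE. Rplp1 and Rplp0, proteins of the ribosomal stalk, measured 279, 376 and 346 and 358, 339 and 339 CPM and 727, 705 and 683 and 699, 695 and 666 CPM in BE and BdE. The unfolded protein response had medians of 0.00 and 0.08 over 21 genes, and p53 and apoptosis genes -0.11 and -0.12 over 21. The chaperones Calr and Pdia3 measured 690.0, 568 and 646 and 652, 603 and 651 CPM and 532, 463 and 572 and 536, 504 and 554 CPM. Sesn2, a stress-induced sestrin, measured 359, 425 and 448 and 360.4, 379 and 376 CPM and Mcl1, an inhibitor of apoptosis, 186, 185 and 199 and 174, 192 and 180.0 CPM, and the groups overlapped in all 4 genes. Genes of exosome release and endocytic uptake had medians of -0.03 and -0.01 over 27 genes, with 399, 252 and 297 CPM in BE and 319.9, 319 and 308 CPM in BdE for the vesicle membrane protein Cd81 and 294, 287 and 259 and 275, 291 and 284 CPM for the late endosomal GTPase Rab7. Niche growth factors had medians of 0.04 and 0.15 over 11 genes, and retinoic acid metabolism -0.15 and 0.03 over 14. The ligand Wnt6 measured 99.1, 77.8 and 79.2 and 81.4, 95.6 and 80.9 CPM. Aldh1a1, which makes retinoic acid, measured 1888, 972 and 1012 and 1458, 1318 and 1288 CPM with BE 6 highest.

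A few genes separated all exosome libraries, BE 6 included, from PBS and lay close together in BE and BdE. None of them passed the edgeR test between BdE and BE. Ccdc71 measured 64.5, 64.3 and 64.5 CPM in BE, 69.6, 59.1 and 66.9 CPM in BdE and 17.7, 16.3 and 22.8 CPM in BP, with a log2 difference between BdE and BE of 0.02 (SE 0.105); it overlaps Klhdc8b on the other strand. Abl1, a tyrosine kinase, measured 168, 133 and 128 CPM in BE, 121, 127 and 129.5 CPM in BdE and 44, 56.3 and 57.96 CPM in BP, with a log2 difference of -0.19 (SE 0.129) and of -0.05 without BE 6. These genes were chosen because they were known to separate the exosome groups from PBS, so that separation is a description. Chml, an escort protein of Rab GTPases, was outside the filter, with 1 library at an FPKM of 1 or more. It held 526, 139 and 736 counts in BE, 15, 19 and 14 in BdE and 544, 559 and 590 in BP, so all BdE libraries were low. Without the filter its log2 difference was -4.84 (SE 0.663, edgeR adjusted p = 0.946 over 32913 genes), and it shares its strand with the overlapping gene Opn3.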

How the data were processed

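RNA was sequenced from testes of busulfan-treated mice in 9 libraries, 3 per group. The deposited table holds a read count per gene and library, which the authors made by assigning reads to 55401 genes, per the file headers; all values are whole numbers. The deposited FPKM values were made by the authors from those counts and gene lengths, per the file headers. The submitters' processing notes name Bowtie 0.12.2 and the build mm8 with no role; the start and end of 51957 genes (93.8%) equal those of GENCODE M21 on GRCm38, so coordinates are given for GRCm38.

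The main test was edgeR 4.0.16 (R 4.3.3): quasi-likelihood, TMM factors, two-sided, Benjamini-Hochberg over the 13857 genes with FPKM of 1 or more in at least 3 of the 6 libraries, threshold 0.05, group as the only term. The SE of an edgeR log2 fold change was derived as its absolute size divided by the square root of the quasi-likelihood F statistic. CPM values are TMM-scaled. The floor for a gene without reads, 3 counts, came to 0.0408 to 0.0487 CPM per library on that scale. List levels are means of log2(FPKM + 1). Alternatives were DESeq2 1.42.0, limma 3.58.1 (voom on counts, and log2 FPKM with pseudocounts of 1 and 0.1), other scalings, filters on low values, a gene length offset, all 9 libraries, summed same-strand overlapping genes, and each library left out.

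The members, lists and tests were chosen with earlier results of these data known. Genes named in the text are the 10 with the smallest p with and without BE 6 (few or none passed), the 2 members of each described list with the highest FPKM (apart from a member not reported here), the 10 genes most unequal within BE, and reference genes; others are said to be chosen after their values were seen, or are defining markers and further examples of the lists. Replication-dependent histones, with 0 of 16 symbols in the table, were not analysed here.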

Additional observations from a re-analysis of the deposited data

How the results depend on the processing

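With all 6 libraries the count of genes past the threshold was 0 in the main test, 24 with DESeq2, and 1 each with upper-quartile factors (Rprd2), with all 9 libraries in the fit (Prrc2b) and with the gene length offset (Rprd2). The count was 0 with mitochondrial genes left out. Leaving out 1 library at a time gave 0 to 4. Without BE 6 the count was 4 in the main test, 157 with DESeq2, 7 with limma-voom, and 1 with limma on log2(FPKM + 1) or log2(FPKM + 0.1). Leaving out a BdE library as well gave 0 to 7, not all of them among the 4. With the 3 PBS libraries added to the fit without BE 6, edgeR called 5 genes. These were Kctd12, Gxylt1, Prrc2b, Cdc42se1 and Gm8355, so Rprd2 and Pip5k1a were no longer called. The count without BE 6 was 4 with the gene length offset and 4 with mitochondrial genes left out. DESeq2 called 1 list member with all 6 libraries and 13 without BE 6, where every other tool called 0. The count of genes whose libraries do not overlap was 711, and 1263 of 21608 genes when counts in all 6 libraries replaced the FPKM filter. In each case the cause was not tested. None of the 16 genes named for their p-values reversed direction. Of 142 genes described in the text or its lists, 86 took the opposite sign in at least 1 alternative with all 6 libraries and 47 without BE 6. List medians were less stable: 30 of 36 took the opposite sign in at least 1 alternative with all 6 libraries and 17 of 36 without BE 6, so directions of lists are descriptions of these libraries.

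The labels do not say that a replicate number pairs libraries, and the groups share the numbers 6 and 7. The residuals of BE 6 and BdE 6 correlated at 0.224 and those of BE 7 and BdE 7 at 0.181, while other pairs lay between -0.159 and 0.170. With the replicate block edgeR called 0 genes, with 280 at an unadjusted p under 0.05 and a smallest adjusted p of 0.660. BE 8 and BdE 5 share no number with the other group, so only BE 6, BE 7, BdE 6 and BdE 7 informed its group difference. With so few libraries behind it, the count of 0 in that fit decides nothing. With 3 libraries per group and a wide spread within BE, a p that misses the threshold does not show that levels are equal.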
